A study of Mus musculus with 18 samples.

Results

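The genes described here are the nuclear genes of mitochondrial oxidative phosphorylation, in heart muscle of mice after a myocardial infarction. They were chosen by name alone: protein-coding genes on the autosomes whose symbol begins with Nduf, Sdha, Sdhb, Sdhc, Sdhd, Uqcr, Cox4, Cox5, Cox6, Cox7, Cox8 or Atp5. The rule gave 97 genes of 20665 autosomal protein-coding genes; 3 further genes with such a symbol lie on the X chromosome and were left out. By symbol they are 39 subunits and 8 assembly factors of complex I, 4 subunits and 4 assembly factors of complex II, 8 subunits of complex III, 17 of complex IV and 17 of ATP synthase. In the study, male C57BL/6JR mice aged 12 weeks were anaesthetised with sodium pentobarbital, and infarction was made by closing the left anterior descending artery of the heart with a suture. Sham mice had the same surgery with a suture that was not tied. Myocardial tissue was taken after 10 min, or after 1 h, 6 h, 24 h or 72 h, under isoflurane, with 3 mice in each group and 3 in the sham group, which gave 18 libraries. Methylated DNA was pulled down with an antibody against 5-methylcytosine and sequenced (MeDIP-seq), so a peak is a place where methylated fragments pile up and not a percentage of methylated molecules.

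The labels give the tissue as myocardial tissue and the cell type as cardiomyocytes, and describe no isolation of cells or choice of infarcted against spared muscle. A peak does not report expression, so marker genes cannot check the cell type. In bulk tissue, fewer cells with methylation at a place and less methylation per cell cannot be told apart. Each library came as its own list of 34255 to 60653 peaks. The 72 h lists held 58992, 60653 and 48608 peaks and the sham lists 49404, 60130 and 44328, so a difference in the percent of a gene under peaks can move with the length of a list. For this reason the main values by group are also given from the 34255 top-scoring peaks of every list.

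Oxidative phosphorylation makes most of the ATP of heart muscle. Complexes I and II take electrons from NADH and succinate, complex III passes them to cytochrome c and complex IV to oxygen, while the proton gradient that results drives ATP synthase. Most subunits are encoded in the nucleus by genes that are active in nearly all cells, and several subunits of complex IV have forms specific to heart and skeletal muscle. Promoters of widely active genes are commonly rich in CpG, the base pair step at which mammalian DNA is methylated, and commonly free of methylation.

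Gene starts of oxidative phosphorylation genes were nearly free of MeDIP peaks. RefSeq promoter sequences on GRCm38.p6 (mm10), from 250 bases before to 50 bases after the start, were held for 84 starts of 79 of the 97 genes. A peak of any library touched 1 of these 84 windows (1.19%), against 1213 of 20085 windows of all autosomal protein-coding genes (6.04%). The exception was Ndufb4b, a copy of the complex I subunit gene Ndufb4 that lies inside Dock8, with a peak over its start in 12 of 18 libraries. The windows of 4 genes are printed below to show this contrast, 5′ to 3′ on the gene's own strand, with each CG in capitals. The motif searched was CG, which reads the same on both strands. Ndufb4b (chr19:25032858-25033157, plus strand) held 5 CG and was the window with peaks. Ndufb4 (chr16:37654319-37654618, minus strand) held 23 CG, Atp5b, the catalytic beta subunit of ATP synthase (chr10:128083057-128083356, plus strand), held 18, and Cox8b, the heart and muscle form of a complex IV subunit (chr7:140900397-140900696, minus strand), held 2. None of these 3 windows had a peak in any library.
Ndufb4b: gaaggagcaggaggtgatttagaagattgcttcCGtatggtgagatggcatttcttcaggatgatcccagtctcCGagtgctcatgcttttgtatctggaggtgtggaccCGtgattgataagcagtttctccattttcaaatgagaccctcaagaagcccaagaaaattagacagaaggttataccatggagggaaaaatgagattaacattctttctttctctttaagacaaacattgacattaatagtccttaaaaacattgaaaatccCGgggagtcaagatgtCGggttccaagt
Ndufb4: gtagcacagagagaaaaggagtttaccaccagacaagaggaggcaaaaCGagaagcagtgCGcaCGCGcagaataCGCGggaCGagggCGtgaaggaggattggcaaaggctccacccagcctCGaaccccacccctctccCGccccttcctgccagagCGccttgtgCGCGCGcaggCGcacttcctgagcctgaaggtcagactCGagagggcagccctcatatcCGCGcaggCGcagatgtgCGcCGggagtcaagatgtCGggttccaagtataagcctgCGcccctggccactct
Atp5b: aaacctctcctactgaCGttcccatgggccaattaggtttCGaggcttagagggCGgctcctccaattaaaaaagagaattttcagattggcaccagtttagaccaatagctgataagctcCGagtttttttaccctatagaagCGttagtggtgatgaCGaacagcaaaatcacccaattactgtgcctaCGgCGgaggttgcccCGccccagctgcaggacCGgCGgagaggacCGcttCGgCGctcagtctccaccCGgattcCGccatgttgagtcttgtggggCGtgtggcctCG
Cox8b: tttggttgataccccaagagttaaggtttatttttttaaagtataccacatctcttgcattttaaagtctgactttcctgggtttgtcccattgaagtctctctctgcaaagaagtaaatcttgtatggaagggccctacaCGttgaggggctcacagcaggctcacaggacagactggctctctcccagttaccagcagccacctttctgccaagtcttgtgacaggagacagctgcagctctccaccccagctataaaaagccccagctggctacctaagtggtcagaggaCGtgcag
The windows of Ndufb4 and Ndufb4b share the run gggagtcaagatgtCGggttccaagt of 26 bases, at positions 250 to 275 of the Ndufb4 window and 275 to 300 of the Ndufb4b window, counted from the 5′ end. Reads of such copies could be placed at either, so values of Ndufb4, Ndufb4b and the further copy Ndufb4c, which lies within Mroh5, are uncertain.

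The windows of the oxidative phosphorylation genes were richer in CG than most. Their median was 20 CG in 300 bases against 14 over all windows, and 81.0% of them held 15 or more against 48.1% of all windows. Among windows with 15 or more CG, a peak was found in 0 of 68 windows of these genes and in 1.57% of the 9660 windows of all genes. A wider window, from 1000 bases before to 500 bases after the start, still gave 1 window with a peak (1.19%) against 13.5% over windows of any CG content. For the starts with 15 or more CG it gave 0 of 68 against 9.10%. Within 2 kb of a start, peaks covered 0.622% ± 0.317 of the bases (SD over 18 libraries), and 0.345% ± 0.266 without Ndufb4b. Over all 16457 genes with a start the value was 1.87% ± 0.297. From 2 to 10 kb inside the start the values came closer, at 2.62% ± 0.780 against 2.73% ± 0.457. From 2 to 10 kb outside it, where the window can enter a neighbouring gene, they were 3.39% ± 0.915 and 2.63% ± 0.384. In bins of 500 bases, these genes lay below all genes in every bin within 2 kb of the start and above them in places further out. The bin starting 6000 bases outside had 5.86% against 2.54%.

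**Figure D1:**
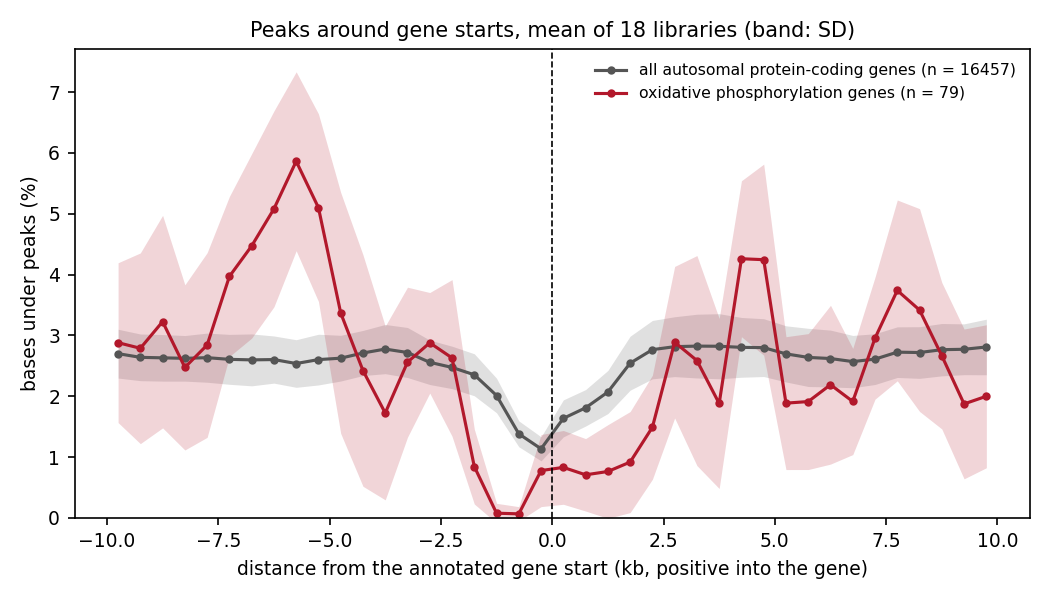
Percent of bases under peaks (y axis) in bins of 500 bases by distance from the annotated gene start in kb (x axis, positive into the gene), as the mean of 18 libraries with a band of 1 SD. Oxidative phosphorylation genes (n = 79, red) lie below all autosomal protein-coding genes (n = 16457, grey) within 2 kb of the start, at 0.622% against 1.87%.

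Taken over the whole gene with 2000 bases on each side, here called its span, 2.09% ± 0.415 of the summed span of the 97 genes was under peaks (SD, 18 libraries, 1.44% to 2.72%). All autosomal protein-coding genes had 2.31% ± 0.327. The ratio of the first to the second was 0.905 ± 0.107 and lay below 1 in 15 of 18 libraries. Oxidative phosphorylation genes are short, with a median length of 7495 bases against 17491, and the ratio differed between length classes. Among genes under 10 kb it was 0.735 ± 0.194 (66 genes, below 1 in 16 of 18 libraries), and from 10 to 30 kb it was 0.529 ± 0.168 (24 genes, below 1 in all 18). Over 30 kb it was 1.14 ± 0.247 (7 genes, below 1 in 6).

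Peaks at these genes were few and in many cases not repeated. No library had a peak at 30 of the 97 genes (30.9%, against 21.9% of all genes), and 22 had one in only 1 or 2 libraries. The remaining 45 (46.4%, against 69.4%) had a peak in at least 3 libraries. A peak in every library was found at 4 genes (4.12% against 20.1%), Sdhaf3, Ndufa4l2, Ndufaf5 and Ndufaf2. These comparisons do not allow for gene length, and the shares differed between length classes. Under 10 kb, 63.6% had a peak in any library against 53.1% of all genes, and 40.9% against 39.7% in at least 3. From 10 to 30 kb the shares were 75% against 85.6%, and 50% against 75.6%. Over 30 kb they were 100% against 97.4%, and 85.7% against 94.3%. Merging the peaks of all libraries gave 120 regions at 67 of the genes, and 83 of them lay wholly within the gene, 24 in a flank only and 13 across both. A single library accounted for 36 regions (30%, against 29.2% of 148111 regions genome-wide), and 4 regions (3.33% against 5.08%) were found in all 18. Of the 120 regions, 23 overlapped another gene.

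**Figure D2:**
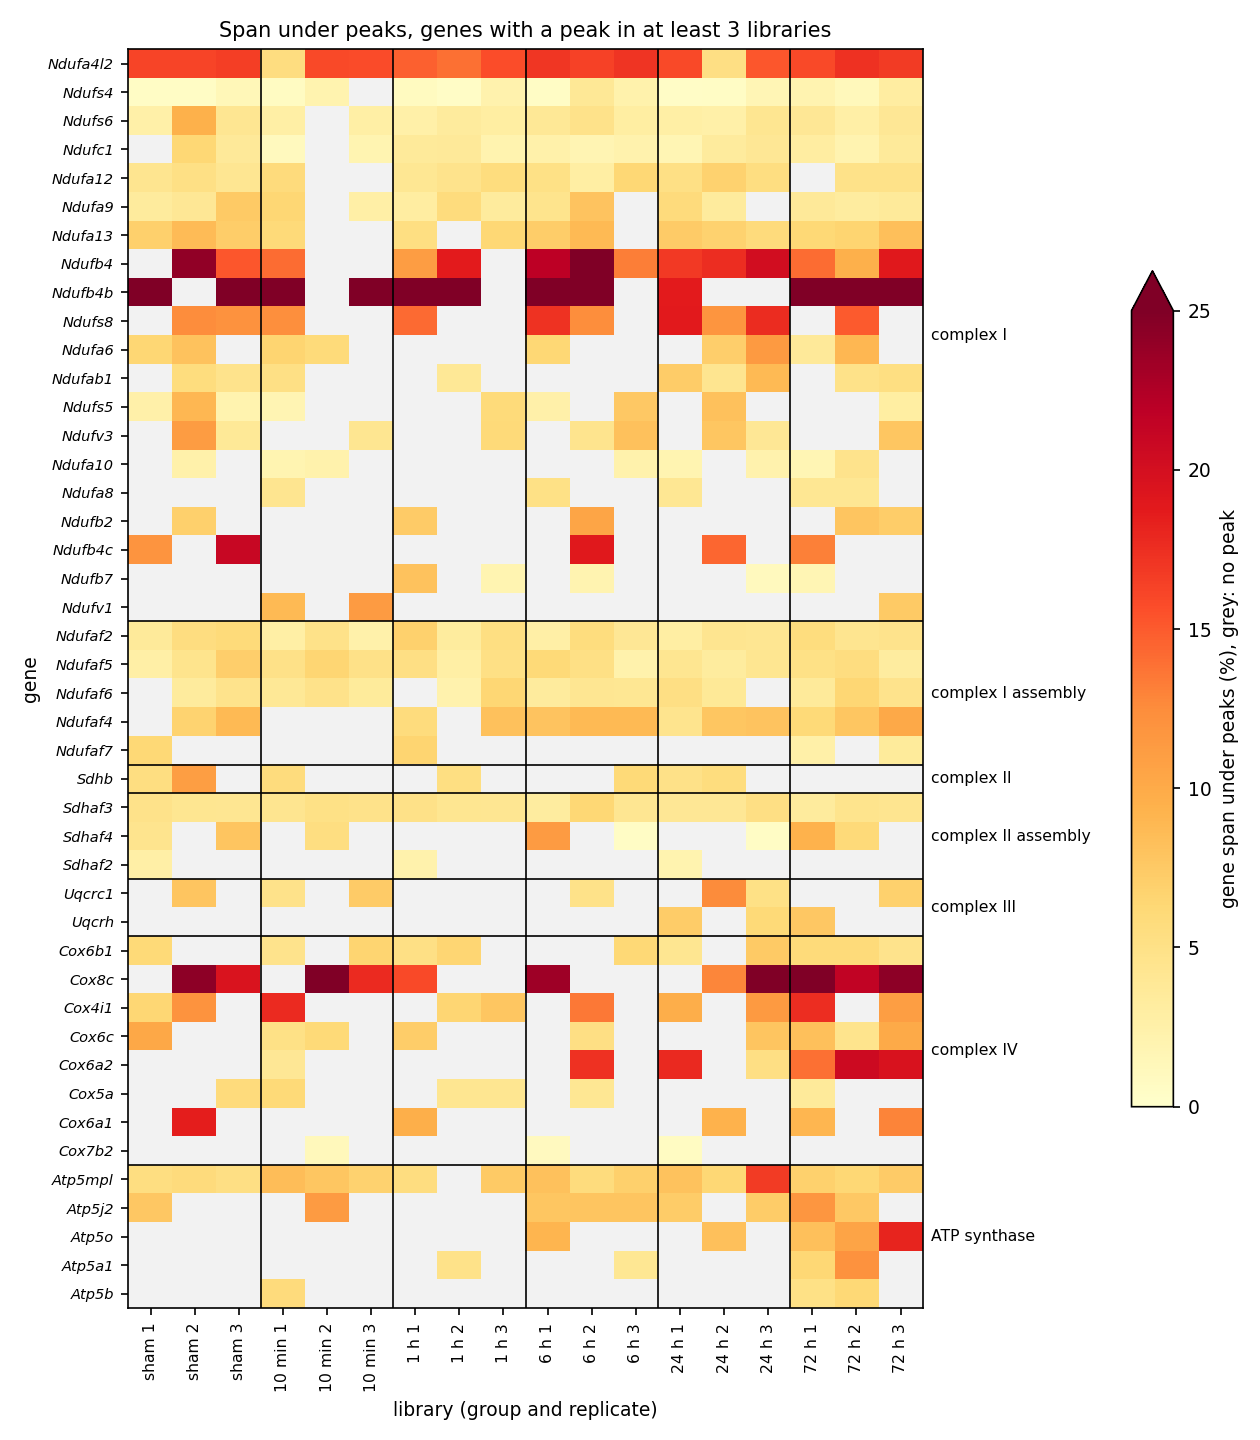
Percent of the span under peaks (colour, from 0 to 25% and above; grey, no peak) for 44 of the 45 oxidative phosphorylation genes with a peak in at least 3 libraries (rows, by complex) in each of the 18 libraries (columns, by group). A few genes such as Ndufa4l2 and Sdhaf3 are filled in every column, and most rows are broken by grey cells within every group.

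The most repeatable peaks included those of some assembly factors, which help build a complex without staying in it, and of a few accessory subunits. The assembly factors Sdhaf3, Ndufaf5 and Ndufaf2 are long genes (83691, 48382 and 106064 bases). All genes over 30 kb had a median of 17 libraries with a peak. Of shorter assembly factors, Ndufaf1, Ndufaf3 and Sdhaf1 had no peak in any library, and Ndufaf4 had one in 13. Sdhaf3, a factor needed to mature the iron-sulfur subunit of complex II, held 2 regions found in all 18 libraries. One, at chr6:7026310-7028020, had a mean score of 199 (the authors' score, lowest value kept 50) and 121 in its weakest library. The other, at chr6:7010930-7012619, had a mean score of 115. Both lie deep inside the gene, 71147 and 55756 bases from its start. Ndufaf5, an assembly factor that modifies a core subunit of complex I, had such a region at chr2:140203680-140205362 (mean score 85.5), 33875 bases from the start. Ndufa4l2, a paralog of Ndufa4 known to be induced by low oxygen, had the fourth, at chr10:127517099-127520481 (mean score 87.1), which mostly lies beyond the gene and overlaps Shmt2.

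Sdhaf3 was also the steadiest of these genes across groups. Its percent of span under peaks was 4.74, 4.28 and 4.13 in sham libraries and 3.35, 4.56 and 4.34 at 72 h, and its group means lay between 4.08% and 4.69%. Ndufaf5 had 2.71%, 4.54% and 7.08% in sham libraries, and its group means ran from 3.92% to 5.47%. Ndufaf2, a complex I chaperone related to the subunit Ndufa12, ran from 2.35% in 10 min replicate 3 to 6.87% in 1 h replicate 1. At all 3 of these genes the range of every time point overlapped that of sham.

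In complex I, 10 of 39 subunit genes had no peak in any library, and 21 had one in at least 3. The core subunits that carry electrons at the NADH end were nearly bare: Ndufs1 had a peak in 2 libraries and Ndufv1, which binds NADH, in 3. Ndufs4, Ndufs6, Ndufc1, Ndufa9 and Ndufa12, all accessory subunits, had a peak in 15 to 17 libraries. Other subunits, named after their values were seen, went the other way. The core subunit Ndufs8 had a peak in 10 libraries, and the accessory subunits Ndufa5, Ndufb6 and Ndufb8 had no peak in any library. For Ndufs6 the region in 17 libraries lay past the gene, at chr13:73317398-73318476, and overlapped the neighbour Gm10263.

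Ndufa13, an accessory subunit also known as GRIM-19, had its peak at the far end of the gene, at chr8:69893665-69894983, overlapping Yjefn3. Its percent of span was 7.02, 8.69 and 7.16 in sham libraries, 6.03, 0 and 0 at 10 min, and 5.36, 0 and 6.29 at 1 h. The 6 h libraries had 7.2, 8.71 and 0, the 24 h libraries 7.38, 6.77 and 5.85, and the 72 h libraries 6.16, 6.59 and 8.37. The 10 min and 1 h libraries all lay below the sham libraries, and the later groups overlapped them.

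Ndufa4l2 had 16.1%, 16.2% and 16.5% in sham libraries. At 10 min it had 5.48%, 15.8% and 15.8%, at 1 h 14.7%, 13.9% and 15.7%, and at 24 h 15.9%, 5.27% and 15.2%. These 3 groups lay below sham, in part by less than 1 percentage point, although every library had the peak. At 6 h the gene had 17.0%, 16.3% and 17.1% and at 72 h 15.9%, 17.3% and 16.8%, both overlapping sham. The region runs past the flank, so the percent counts only its inner part, and peak widths were not compared. With equal numbers of peaks Ndufa4l2 was again below sham at 10 min, 1 h and 24 h. With no flank, or with peaks counted by midpoint, it was not among the genes below sham at any time. Ndufa4 itself, first assigned to complex I and now counted with complex IV, had no peak in any library.

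Ndufs5, an accessory subunit, had 2.53%, 8.98% and 2.09% in sham libraries and 1.83%, 0% and 0% at 10 min, which did not overlap. At each later time at least 1 library had more than the lowest sham library. Ndufaf4, an assembly factor singled out after its values were seen, had 0%, 6.69% and 8.74% in sham libraries, 0% in all 3 libraries at 10 min, and 7.98%, 8.78% and 8.76% at 6 h. Its 10 min libraries were all at 0, as was the first sham library.

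In complex II, the peaks of the subunits came mainly from Sdhb, which carries the iron-sulfur clusters. It had 5.46%, 11% and 0% in sham libraries, at most 1 or 2 libraries with a peak in each group from 10 min to 24 h, and 0% in all 3 libraries at 72 h. The ranges of sham and 72 h met at 0. Its peaks came from separate regions, at chr4:140978270-140979771 in 5 libraries and at chr4:140972442-140973714 in 3. Sdha, the flavoprotein that oxidises succinate, had a peak in 1 library.

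Complex III had the largest share of genes with no peak in any library, 5 of 8. Uqcrc1, a core protein of the matrix side, had a peak in 7 libraries, and Uqcrfs1, the Rieske iron-sulfur protein, in 2. Uqcrc1 had 0%, 7.84% and 0% in sham libraries and 0%, 12.6% and 4.98% at 24 h, which overlapped. No complex III gene had a peak in any 1 h library.

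In complex IV, peaks were unevenly spread over subunit forms. Of the widely expressed forms, Cox7a2 and Cox8a had no peak in any library and Cox6a1 had one in 5. Of the heart and muscle forms, Cox7a1 had a peak in 1 library, Cox8b in 2 and Cox6a2 in 7. Cox4i1, the common form of the regulatory subunit, had a peak in 10 libraries, and Cox4i2, its form in lung and under low oxygen, in 2. Cox6b1, the common form of subunit VIb, had a peak in 11 libraries, and Cox6c in 9; both were named after their values were seen. Cox5a, a subunit on the matrix side, had a peak in 6. Cox8c, a testis form named here after its values were seen, had a peak in 11 libraries, with 25.9%, 21.5% and 24.2% of its span at 72 h and 0%, 24.2% and 19.5% in sham libraries. Of the other testis forms, Cox7b2 had a peak in 3 libraries and Cox6b2 in 1.

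Cox6a2, the heart and muscle form of subunit VIa, was the complex IV gene with the clearest difference by group. Its percent of span was 0 in all 3 sham and all 3 1 h libraries, 3.97, 0 and 0 at 10 min, 0, 17.4 and 0 at 6 h, and 17.8, 0 and 5.19 at 24 h. At 72 h it was 13.9, 20.5 and 19.5, apart from sham. The 72 h peaks were not one shared region. Replicates 1 and 3 at 72 h had a peak over the gene at chr7:128205482-128206445, and replicates 1 and 2 had one in its flank at chr7:128202415-128204633. Both regions overlap Itgad, which encodes a leukocyte integrin. Scores at these regions ran from 53.6 to 124, and 50 was the lowest score in every list.

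ATP synthase genes were the least covered in sham libraries after complex III. Atp5a1 and Atp5b, the alpha and beta subunits of the catalytic head, had a peak in 4 and 3 libraries, 2 of them 72 h libraries for each gene and none sham. Atp5o, the subunit that joins the head to the peripheral stalk, had 0% in all 3 libraries of the sham, 10 min and 1 h groups. The 6 h libraries had 9.12%, 0% and 0%, the 24 h libraries 0%, 8.27% and 0%, and the 72 h libraries 8.21%, 10.5% and 18.1%. The 3 libraries at 72 h stood apart from sham, and here they shared one region within the gene, at chr16:91927296-91929181, with scores of 55.7, 63.8 and 76.9.

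Atp5mpl, a small membrane protein of ATP synthase, had a peak in its flank at chr12:111958691-111960306 in 17 libraries. It had 5.46%, 5.78% and 5.27% in sham libraries, 8.41%, 7.76% and 6.81% at 10 min, and 5.47%, 0% and 7.48% at 1 h. The 6 h libraries had 8.18%, 5.74% and 6.96%, the 24 h libraries 8.09%, 6.30% and 16.8%, and the 72 h libraries 6.91%, 6.29% and 7.36%. The groups at 10 min, 24 h and 72 h lay above sham and those at 1 h and 6 h overlapped it. The 16.8% includes a separate flank peak at chr12:111968326-111969360, found in that library only. With equal numbers of peaks Atp5mpl was above sham at 10 min and 72 h, and with peaks counted by midpoint only at 10 min. With no flank it was not among the genes above sham at any time. The score of the shared region went the other way in part, at 168 and 156 in the first 2 sham libraries. It lay between 56.9 and 127 in every other library with the region. The region runs past the flank, so the percent counts only its inner part, and peak widths were not compared. Atp5j2, the f subunit of the membrane part, had 7.70%, 0% and 0% in sham libraries, 0% in all 3 at 1 h and 7.81%, 7.90% and 7.86% at 6 h.

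**Figure D3:**
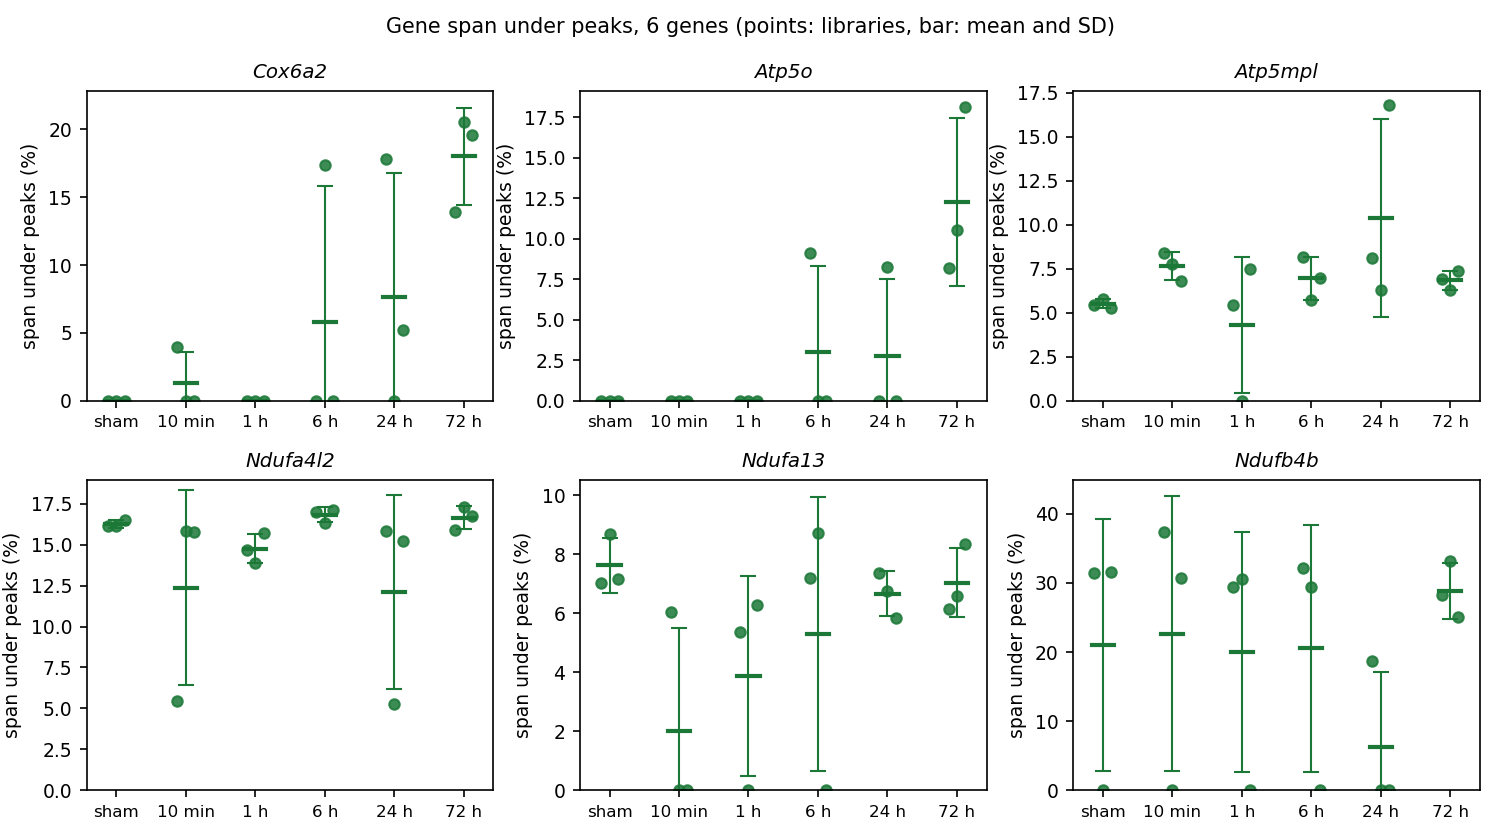
Percent of span under peaks (y axis, own scale for each gene) by group (x axis) for Cox6a2, Atp5o, Atp5mpl, Ndufa4l2, Ndufa13 and Ndufb4b; points are libraries (n = 3 per group), bars the mean and SD. Cox6a2 and Atp5o are at 0 in sham and lie between 8.21% and 20.5% at 72 h.

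The 97 genes as a whole had their lowest mean at 1 h and their highest at 72 h, as had all genes. Their summed span was covered to 1.63%, 2.57% and 2.21% in sham libraries, 2.21%, 1.68% and 1.44% at 10 min, and 1.98%, 1.56% and 1.77% at 1 h. The 6 h libraries had 1.86%, 2.72% and 1.77%, the 24 h libraries 2.04%, 2.12% and 2.21%, and the 72 h libraries 2.58%, 2.65% and 2.67%. Only the 72 h libraries lay clear of sham, and by 2.58% against 2.57%. The mean at 72 h was 2.63% ± 0.0493 against 2.14% ± 0.474 in sham (SD, n = 3 each), while all genes had 2.67% ± 0.249 against 2.48% ± 0.399. The mean ratio of these genes to all genes was 0.858 ± 0.114 in sham and 0.992 ± 0.0920 at 72 h, and the ranges of that ratio overlapped. The difference of 0.499 percentage points was 0.246 without sham replicate 1. With 34255 peaks from each list the means were 1.65% ± 0.139 at 72 h and 1.46% ± 0.454 in sham, which overlapped and differed by 0.197. The highest mean was then at 6 h, for these genes (1.70%) as for all genes (1.73%).

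**Figure D4:**
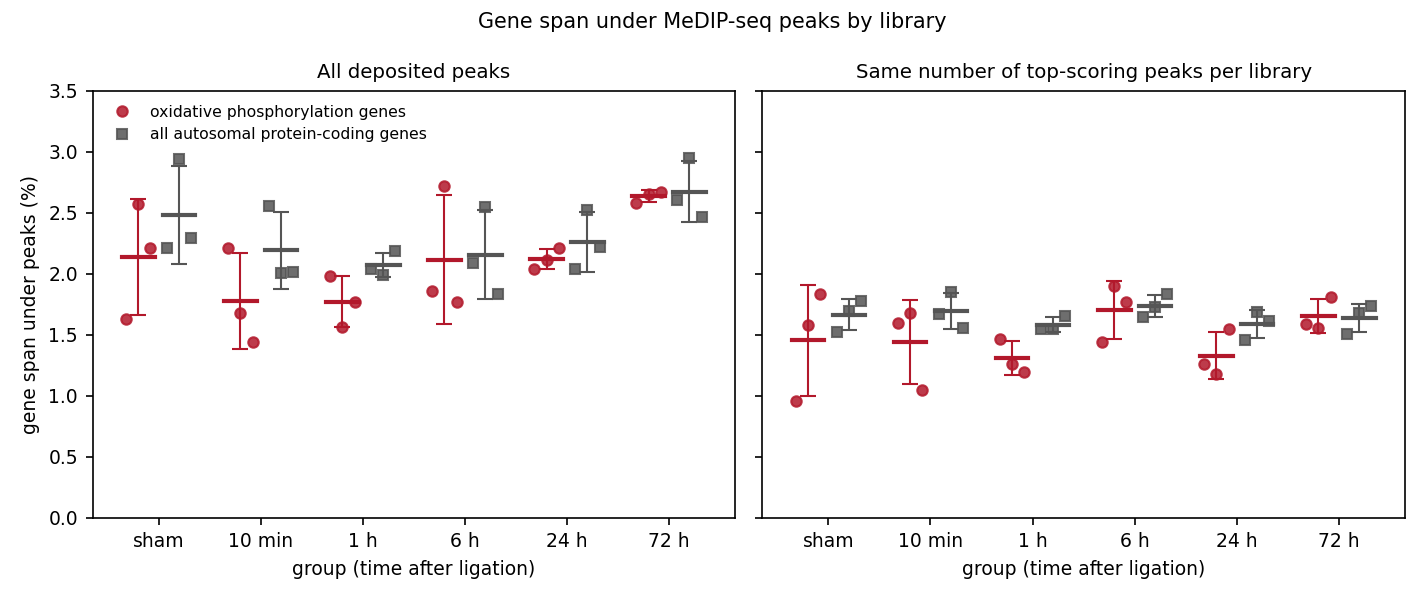
Percent of the summed gene span under peaks (y axis) by group (x axis) with all deposited peaks (left) and with the 34255 top-scoring peaks of each list (right), for the 97 oxidative phosphorylation genes (red circles) and all autosomal protein-coding genes (grey squares). Points are libraries (n = 3 per group) and bars the mean and SD; on the left the 72 h libraries sit between 2.58% and 2.67%, and on the right the 72 h and sham libraries overlap.

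More of the genes had a peak at 72 h. The number was 38, 35 and 32 of 97 in the 72 h libraries and 24, 29 and 24 in the sham libraries, with no overlap. With equal numbers of peaks it was 25, 21 and 23 against 14, 18 and 20, again with no overlap. Of all genes, 51.7% to 58.1% had a peak at 72 h and 48.1% to 57.2% in sham, which overlapped. With equal numbers of peaks the shares of all genes did not overlap either, at 42.4% to 43.2% against 40.9% to 41.9%.

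By complex, the largest difference between 72 h and sham was at ATP synthase. In sham libraries, peaks covered 0.501% ± 0.235 (0.256% to 0.724%) of the span of its 17 genes, and at 72 h they covered 2.21% ± 0.809 (1.31% to 2.88%). The 6 h libraries (1.21% ± 0.133) and the 24 h libraries (1.06% ± 0.214) also lay above sham. Once every list was cut to the same number of peaks, none of these differences held. ATP synthase then had 0.348% in sham (0.256% to 0.523%), 0.584% at 6 h (0.279% to 1.08%), 0.250% at 24 h (0 to 0.393%) and 0.881% at 72 h (0.305% to 1.31%), so the ranges overlapped and the 24 h mean lay below sham. The 17 complex IV genes had 1.15% ± 0.319 in sham and 2.27% ± 0.867 at 72 h (1.27% to 2.77%), which overlapped the sham range of 0.803% to 1.43%. Complex I subunits had 2.40% ± 0.819 in sham and 2.83% ± 0.457 at 72 h, also overlapping. Its assembly factors were the most covered set in both groups, with 4.0% ± 1.3 and 4.31% ± 0.232. With equal numbers of peaks the order of these means turned, at 3.27% ± 1.41 in sham and 2.45% ± 0.139 at 72 h. These means pool few peaks, since 1 or 2 of 17 ATP synthase genes had a peak in a sham library.

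**Figure D5:**
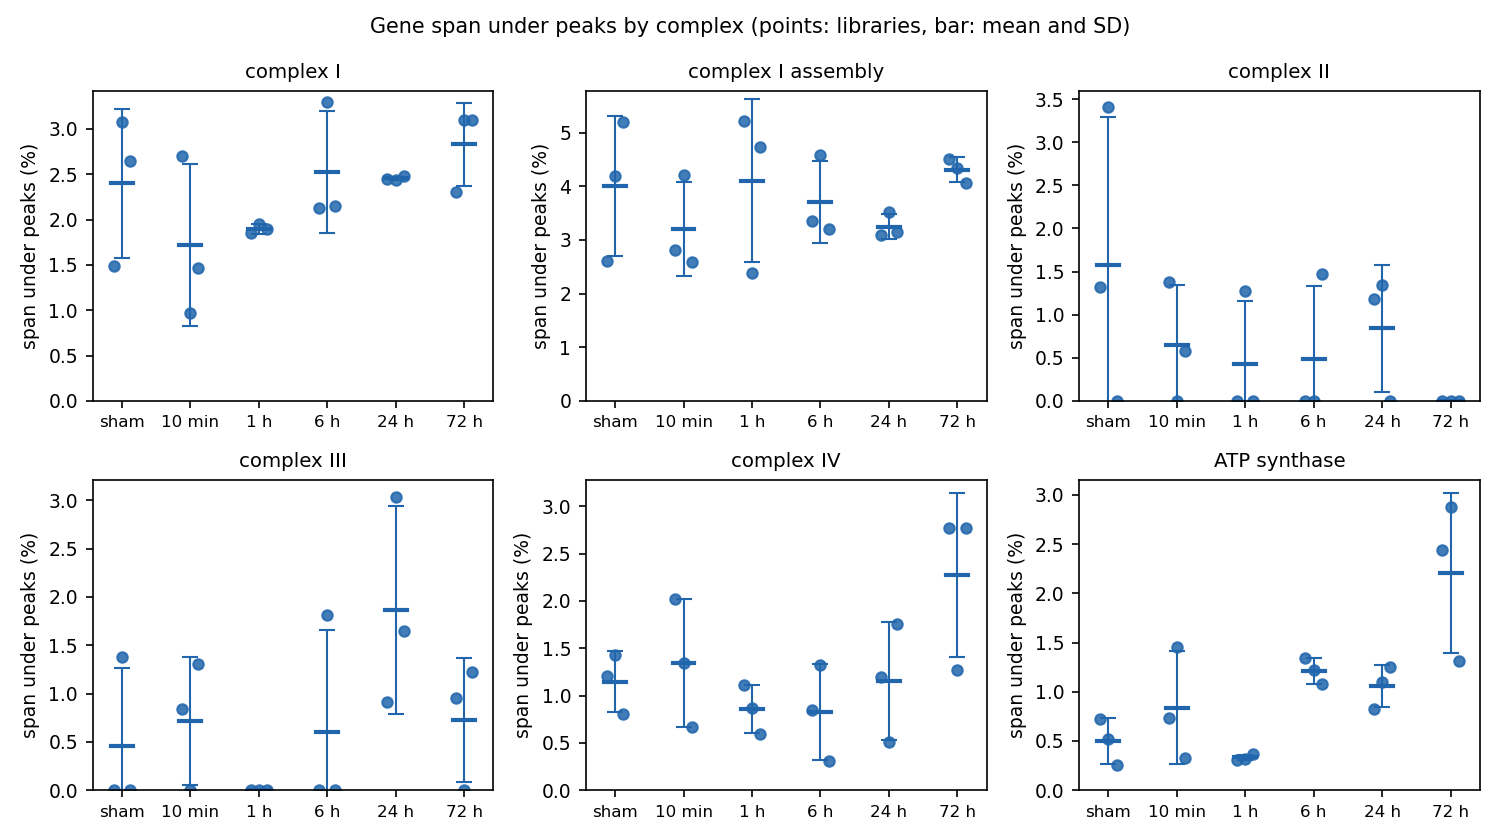
Percent of the summed gene span under peaks (y axis, own scale for each panel) by group (x axis) for complex I, its assembly factors, complexes II, III and IV, and ATP synthase; points are libraries (n = 3 per group), bars the mean and SD. ATP synthase lies between 0.256% and 0.724% in sham and between 1.31% and 2.88% at 72 h, complex II is at 0 in all 72 h libraries, and the other panels overlap between sham and 72 h.

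Gene by gene, no oxidative phosphorylation gene passed the test at any time. The test was limma on the percent of span under peaks of 14333 genes with a peak in at least 3 libraries, 45 of them oxidative phosphorylation genes, with Benjamini-Hochberg adjustment over all 14333. At an adjusted p under 0.05 it called 0 of the 45 in each of the 5 comparisons with sham and over the 6 groups together. Of all genes it called 0.0419% at 10 min, 1 h, 6 h and 24 h, 0.105% at 72 h and 0.209% over the 6 groups. In a check, each gene's values were shuffled over the libraries and some genes were raised at 72 h. Limma called 30% of 50 genes raised by 5 percentage points, 62% of those raised by 10 and 92% of those raised by 20. Differences of 5 or 10 points, and at times of 20, could thus be missed. The raised genes were drawn from all 14333, so the check gives no rate for oxidative phosphorylation genes alone. Among those, the SE at 72 h reached 12.1 points at Ndufb4b and 9.04 at Cox8c. At an unadjusted p under 0.05, limma gave 4 of 45 at 10 min (8.89%, against 5.1% of all genes) and 1 at 1 h (2.22% against 5.04%). It gave 0 at 6 h (5.83% of all genes), 2 at 24 h (4.44% against 4.94%), 4 at 72 h (8.89% against 6.9%) and 4 over the 6 groups (8.89% against 6.52%). The shares lay on both sides of the background. With no filter on the number of libraries, limma gave 4 of 97 at 72 h (4.12%, against 5.34% of all genes). At 10 min it then gave 4 of 97 (4.12% against 3.96%).

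At 72 h the genes with such a p were Cox6a2, Atp5o, Atp5a1 and Atp5b, all higher than in sham. Of these, Atp5o, Atp5a1 and Atp5b reached the 3 libraries needed for the test only through the 72 h group. Cox6a2 differed by 18 percentage points (SE 4.48, limma adjusted p = 0.241) and Atp5o by 12.3 (SE 2.79, limma adjusted p = 0.188). Atp5a1 differed by 6.10 (limma adjusted p = 0.637) and Atp5b by 3.77 (limma adjusted p = 0.675), each with a peak in 2 of 3 libraries. At 10 min the genes were Ndufa13, Ndufaf4 and Ndufs6, lower than in sham, and Ndufv1, higher. Their limma adjusted p-values ran from 0.890 to 0.965. At 1 h it was Ndufb7, and at 24 h Atp5mpl and Uqcrh, with 4.89 and 4.44 percentage points more than sham. Ndufv1 reached 3 libraries only through the 10 min group, and Uqcrh only through the 24 h group. The Atp5mpl difference includes the 24 h library at 16.8%, with its separate peak.

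Counted by ranges, few genes lay apart from sham, and their number was near the background. At 10 min Atp5mpl was higher (1 of 45, 2.22%, against 2.27% of all genes tested), and Ndufa13, Ndufa4l2 and Ndufs5 were lower (6.67% against 5.27%). At 1 h 0 were higher (1.65% of all genes), and Ndufa13 and Ndufa4l2 were lower (4.44% against 7.14%). At 6 h Atp5j2 was higher (2.22% against 2.2%) and 0 were lower (5.45% of all genes). At 24 h Atp5mpl was higher (2.22% against 2.64%) and Ndufa4l2 lower (2.22% against 5.21%). At 72 h Atp5mpl, Atp5o and Cox6a2 were higher (6.67% against 5.67%) and 0 were lower (2.97% of all genes). Atp5o was among the genes tested only through its 72 h libraries. The 5 comparisons share the sham libraries.

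A peak in all 3 libraries of a time and in 0 of 3 sham libraries was found only at 72 h, at Atp5o and Cox6a2. These are 2 of 97 genes (2.06%), against 0.644% of all genes. At 10 min, 1 h, 6 h and 24 h the count was 0, against 0.198%, 0.14%, 0.155% and 0.232% of all genes. The reverse, a peak in all 3 sham libraries and in none of a time, was found at 0 of the 97 genes at every time, against 0.537%, 0.6%, 0.697%, 0.503% and 0.213% of all genes from 10 min to 72 h. With equal numbers of peaks, and with scores of at least 100, neither Atp5o nor Cox6a2 remained gained at 72 h.

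With all 15 infarct libraries against the 3 sham libraries, 25 named genes were each given an exact permutation test (two-sided, on the means), which can go down to p = 0.00123. None of the 25 had p below 0.05. The lowest was Ndufs6, with 3.08% ± 1.09 after infarction and 5.37% ± 3.60 in sham (exact permutation p = 0.0723, below the sham mean in all 15). Sdhb had 1.84% ± 2.70 against 5.47% ± 5.48 (exact permutation p = 0.0870), and Ndufa13 had 4.98% ± 3.23 against 7.62% ± 0.925 (exact permutation p = 0.163). Cox6a2 had 6.55% ± 8.51 against 0 (exact permutation p = 0.347), with 7 of 15 infarct libraries above 0. The high sham mean of Ndufs6 rested on the second sham library, with 9.42% against 2.55% and 4.14% in the others.

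Other genes of the pathway, from lists of genes that are not among the 97, gave no call either. Limma called 0 of 11 tested electron carriers and regulators, 0 of 14 tested assembly factors of complexes III, IV and ATP synthase, 0 of 11 tested citric acid cycle genes and 0 of 6 tested mitochondrial carriers, in any comparison. Among the regulators, Gabpa and Tfb2m, which act on nuclear and mitochondrial genes of the respiratory chain, and Ppara, a regulator of fatty acid use, had an unadjusted limma p under 0.05 at 72 h, all higher (3 of 11 tested, against 6.9% of all genes). Below sham at such a p was Cox10, an assembly factor of complex IV, at 1 h and at 24 h (1 of 14 tested each time). So were the citric acid cycle genes Idh2 and Idh3a at 1 h (2 of 11 tested). Above sham were Lyrm7 at 6 h (1 of 14 tested) and Dld at 10 min and 6 h (1 of 11 tested each time). Of all genes, 5.1%, 5.04%, 5.83% and 4.94% had such a p at 10 min, 1 h, 6 h and 24 h. Peaks covered 1.91% ± 0.332 of the 14 electron carriers and regulators in sham libraries, against 2.40% ± 0.595 at 72 h, with overlapping ranges.

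Marker genes of cell types found in heart tissue were measured in the same way. Peaks covered 0.615% to 1.22% of the span of 10 cardiomyocyte markers in sham libraries and 0.957% to 2.56% at 72 h. For 10 leukocyte markers, 4 of them with no peak in any library, the ranges were 1.01% to 1.59% in sham and 1.61% to 1.93% at 72 h. With equal numbers of peaks their means were 0.742% in sham and 0.683% at 72 h. For 8 fibroblast markers the ranges were 2.15% to 2.55% and 1.82% to 3.8%, and for 7 endothelial markers 3.55% to 6.31% and 4.58% to 5.87%. With equal numbers of peaks, cardiomyocyte markers had means of 0.580% ± 0.129 in sham and 0.960% ± 0.425 at 72 h. Fibroblast markers then had 1.80% ± 0.388 and 2.16% ± 0.537, and endothelial markers 2.66% ± 0.588 and 3.28% ± 0.294. Limma called 0 genes of these lists at 72 h. At an unadjusted limma p under 0.05, Tnnt2 (1 of 9 cardiomyocyte markers tested) and Csf1r (1 of 4 leukocyte markers tested) were higher at 72 h. No fibroblast or endothelial marker had such a p at 72 h, against 6.9% of all genes. The part of cell makeup and of list length in the 72 h values of Atp5o, Cox6a2 and the ATP synthase genes was not tested.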

How the data were processed

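The data were 18 MeDIP-seq peak lists, 1 per library. Per the submitters' processing notes, Bowtie2, MACS2 and the mm10 build were used, with no versions; the options, the use of an input library and the handling of duplicate reads are not given in the sources used here. The deposited lists hold chromosome, start, end, a name and a score per peak. The scale of the deposited score is not stated; its lowest value was 50 in every list, and it was used only to describe, rank and filter peaks. Read depth is not known from the lists, so no counting error is given.

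Genes and promoters came from RefSeq tables on GRCm38.p6. For each autosomal protein-coding gene with 2000 bases on each side, the percent of bases under peaks was computed per library, with Python 3.11.15 and pandas 2.3.3. Genes with a peak in at least 3 of 18 libraries were tested with limma 3.58.1 (R 4.3.3), with 6 groups of 3, Benjamini-Hochberg adjustment over all 14333 genes and a threshold of 0.05. Single genes were tested over 15 infarct and 3 sham libraries by exact permutation with scipy 1.17.1; 3 against 3 alone cannot go below p = 0.1. The mice are separate animals per the labels' design. No pair of libraries was a copy (correlation across genes 0.487 to 0.617 over 153 pairs). Alternatives were equal peak numbers, scores of at least 100, no flank, other means and filters, and leaving out each replicate. The scripts were tested on simulated data.

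Named genes were the 12 with a peak in the most libraries, those whose libraries did not overlap sham (up to 4 each way per time), any called by limma, and a set of core subunits and isoforms named whatever their values. Genes and lists were chosen with earlier results of these data known. The wider promoter window, the length classes and the values without Ndufb4b were added after seeing the data. Slc25a5 of the carrier list was not among the autosomal genes, and 18 of the 97 genes had no promoter entry. The values of 1 further gene, which counts among the 97, are not reported here.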

Additional observations from a re-analysis of the deposited data

Results flagged for a closer look

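For 35 measures (the 97 genes together, complexes and named genes), 13 pairs of times were found in which all 3 libraries of one time lay above the sham mean and all 3 of the other lay below it. Both times share the sham libraries, and the difference between them was not tested. Values are differences between the means of the 2 times, in percentage points of span under peaks. For the 97 genes together, 72 h exceeded 1 h by 0.863. Complex I subunits at 24 h exceeded 1 h by 0.556, and complex I assembly factors at 72 h exceeded 24 h by 1.06. Complex III at 24 h exceeded 1 h, where it had no peak, by 1.86. Complex IV at 72 h exceeded 1 h by 1.41. ATP synthase exceeded its 1 h value by 0.880 at 6 h, by 0.727 at 24 h and by 1.87 at 72 h. The order turned, with equally long lists, for complex I assembly factors, which then had 2.45% at 72 h and 2.70% at 24 h.

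Among single genes, Ndufa4l2 at 6 h exceeded 10 min by 4.47, 1 h by 2.07 and 24 h by 4.72; the differences from 10 min and 24 h each include 1 library near 5%. Ndufaf5 at 10 min exceeded 24 h by 1.55. Atp5j2 at 6 h, with a peak in all 3 libraries, exceeded 1 h, with none, by 7.86.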

How the results depend on the processing

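Limma called 0 oxidative phosphorylation genes in each of 144 alternative results, which count every comparison of every alternative fit separately. The difference of the 97 genes from sham moved by less than 1 SD in 54 of 55 alternatives; the exception was 0.861 percentage points at 72 h with the mean of each gene's own percent, against 0.499. That SD is wide: the 72 h difference was 0.197 with equal peak numbers, 0.181 with scores of at least 100 and 0.246 to 0.716 without 1 library. At 6 h it ran from -0.324 to 0.246 and at 24 h from -0.268 to 0.202 over the alternatives, so these had no fixed sign. Their ratio to all genes was 0.751 with that mean and 0.748 with genes no longer than the longest of the 97. Counts by ranges were small and unstable. Genes not overlapping sham numbered 2, 1 and 0 at 10 min, 1 h and 6 h with equal peak numbers. With scores of at least 100 they were 0, 0 and 0 at 10 min, 1 h and 24 h and 1 at 72 h, and with no flank 1, 0, 0 and 1. Genes gained or lost at 72 h were 0 with equal peak numbers, 0 with scores of at least 100 and 1 with no flank. Leaving out 1 library at a time gave 4 to 10 genes not overlapping at 10 min, 2 to 6 at 1 h, 1 to 5 at 6 h, 2 to 7 at 24 h and 4 to 8 at 72 h. Gained or lost genes then numbered 0 to 3 at 10 min, 0 to 2 at 1 h, 0 to 2 at 6 h, 0 to 3 at 24 h and 2 to 6 at 72 h. The highest counts not overlapping came without sham replicate 1 at 10 min, 1 h and 72 h (10, 6 and 8; also 8 at 72 h without 72 h replicate 3), without sham replicate 3 at 6 h (5) and without 24 h replicate 2 at 24 h (7). Groups of 2 lie apart more readily by construction.

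Same-numbered replicates did not deviate together (correlation -0.0594 to 0.0570 over 15 pairs). Such correlations cannot tell whether same-numbered mice were handled together. With the replicate block limma called 3 of all genes at 10 min, against 6 without it. Of all genes it called 3 at 10 min, 1 h and 6 h with no flank and 3 at 6 h with no filter. With equal peak numbers it called 2 at 1 h, 6 h and 24 h, 6 at 72 h and 14 over the groups, and with scores of at least 100 it called 16 over the groups. Without 1 library it called 0 to 10 at 10 min, 1 to 10 at 1 h, 0 to 11 at 6 h, 3 to 13 at 24 h, 12 to 20 at 72 h and 22 to 37 over the groups. The cause of these changes was not tested. Of 550 alternative values for single genes, some of them from limma with the replicate block, 5 crossed 0.05. Each of these came from an exact permutation test of infarct against sham libraries. Ndufs5 gave -2.95 percentage points (exact permutation p = 0.0196) with scores of at least 100 and Sdhb -4.23 (p = 0.0331) with no flank. The others set 15 infarct libraries against only 2 sham libraries. Without sham replicate 1, Ndufs6 gave -3.70 (exact permutation p = 0.0221) and Ndufc1 -2.54 (exact permutation p = 0.0147). Without sham replicate 3, Sdhb gave -6.38 (exact permutation p = 0.0294).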
